A study of Mus musculus with 4 samples.

Results

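The genes described here encode succinate dehydrogenase (complex II), cytochrome c oxidase (complex IV) and the ATP synthase of mitochondria. They were chosen by their symbols: Sdha to Sdhd, symbols starting with Atp5, the nuclear subunit families Cox4i to Cox8, and Cox10 to Cox20. A probe set had to carry exactly 1 such symbol in the platform annotation, and the brightest probe set stood for a gene. This gave 46 genes of 19938, read by 63 probe sets, with 4 genes of complex II, 17 subunit genes of complex IV, 8 assembly genes of complex IV and 17 genes of the ATP synthase.

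The series compares whole fetal brains at embryonic day 16, from the inbred mouse strain C57BL/6J, after the pregnant females had been injected with ethanol or with saline alone. The ethanol dose was 2.5 g per kg, and injections fell on gestational days 14 and 16 in both groups. Each group has 2 arrays, and each array holds RNA of 3 pooled mice, so 12 mice entered in all, with the sex of the fetuses given as unknown. The labels do not say which litters went into which pool, so a p-value here measures only the spread between these pools, and fewer cells of a type cannot be told apart from less RNA per cell in whole brain.

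Complex II oxidises succinate, an intermediate of the citric acid cycle, and passes the electrons to ubiquinone in the inner mitochondrial membrane. Complex IV takes electrons from cytochrome c, reduces oxygen to water and pumps protons, and the ATP synthase lets protons flow back and makes ATP. Complex II is built from nuclear genes alone, while complex IV and the ATP synthase join nuclear subunits to core subunits of the mitochondrial genome. In the brain this pathway supplies most of the ATP that neurons use, and many of its nuclear genes are known targets of the transcription factors NRF1, GABPA and YY1.

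The promoters show how far these genes share the sequence elements of that control. Promoter windows from RefSeq (build GRCm38.p6, 250 bases before to 50 after the gene start) were matched by symbol for 36 of the 46 genes, with 39 windows in all. Cox4i1, Cox4i2, Cox6a2, Cox6c, Cox8c, Cox17, Cox18, Sdhc, Atp5a1 and Atp5mpl had no window in the table. The windows were searched on both strands for the NRF1 core GCGCANGCG, the GABPA core CCGGAAG and the YY1 core AAGATGGC, the last of which can share its AAG with the GABPA core. The windows below belong to the complex II genes with the largest differences between the groups, to a complex IV subunit with both the NRF1 and the GABPA core, to the assembly gene with the largest difference, and to a muscle isoform with none of the cores. They run from 170 bases before to 30 after the start, 5′ to 3′ on the gene's strand, with the core matches in capitals, where matches on both strands can overlap.
Sdhb, chr4:140961101-140961300, forward strand: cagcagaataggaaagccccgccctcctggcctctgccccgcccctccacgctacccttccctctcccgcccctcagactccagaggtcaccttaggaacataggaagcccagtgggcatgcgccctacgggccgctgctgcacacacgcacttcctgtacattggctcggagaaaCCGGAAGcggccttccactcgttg
Sdhd, chr9:50603820-50604019, reverse strand: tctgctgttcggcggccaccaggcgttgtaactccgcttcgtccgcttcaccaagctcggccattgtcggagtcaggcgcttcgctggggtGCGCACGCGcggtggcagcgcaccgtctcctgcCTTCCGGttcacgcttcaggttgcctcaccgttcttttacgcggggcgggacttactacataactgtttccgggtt
Cox6a1, chr5:115348929-115349128, reverse strand: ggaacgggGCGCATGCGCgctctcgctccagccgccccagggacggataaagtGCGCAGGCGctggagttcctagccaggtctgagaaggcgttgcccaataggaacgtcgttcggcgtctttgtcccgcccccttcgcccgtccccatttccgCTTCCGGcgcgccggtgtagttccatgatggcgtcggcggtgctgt
Cox20, chr1:178318983-178319182, forward strand: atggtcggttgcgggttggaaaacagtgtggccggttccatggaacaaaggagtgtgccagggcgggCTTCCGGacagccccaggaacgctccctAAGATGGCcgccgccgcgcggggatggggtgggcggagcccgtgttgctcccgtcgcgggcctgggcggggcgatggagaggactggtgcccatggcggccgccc
Cox7a1, chr7:30184001-30184200, forward strand: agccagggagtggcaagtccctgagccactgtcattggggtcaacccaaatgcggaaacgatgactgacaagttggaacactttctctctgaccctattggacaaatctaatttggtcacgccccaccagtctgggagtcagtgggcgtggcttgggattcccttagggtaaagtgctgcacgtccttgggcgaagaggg

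The GABPA core was in 15 of the 39 windows (38.5%), against 8.86% of all 32851 windows of the same length. For NRF1 the count was 10 of 39 (25.6% against 6.25%), and for YY1 5 of 39 (12.8% against 2.75%). At least 1 of the 3 cores was in 22 windows (56.4% against 16%). In Sdhd the NRF1 core lies at bases -79 to -71 and the GABPA core at -46 to -40, counted from the start as 0. Sdha, which encodes the subunit that oxidises succinate, has 3 NRF1 cores, at -98, -55 and -10. Among the assembly genes with a window, 4 of 6 held the GABPA core and 0 the NRF1 core, while 7 of 15 ATP synthase genes held the NRF1 core and 6 the GABPA core. The difference between ethanol and control arrays was below 0 in 45.8% of all genes, and in 59.5% of those brighter than the median gene. It was below 0 in 9 of the 10 genes with an NRF1 core, all of them brighter than the median gene. Of the 26 others with a window, 12 were below 0 (medians of the log2 difference -0.07 and 0.0049). The count of 9 rested on control 1. Without that array 5 of the 10 genes with an NRF1 core were below 0 (median -0.0049) and still 12 of the 26 others. After repeated quantile normalization 7 of the 10 and 11 of the 26 were below 0. Of the 10 genes, 7 belong to the ATP synthase, and the parts of motif and class in this count were not tested. For GABPA the difference was below 0 in 7 of 15 genes with the core and in 14 of 21 without it. For YY1 it was below 0 in 2 of 5 with the core and in 19 of 31 without it. Leaving out an array moved these counts to between 6 and 11 of 15 for GABPA and between 2 and 4 of 5 for YY1. The motif letters were chosen after the values had been seen, and a core match is a run of letters that was not tested as a binding site.

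**Figure D1:**
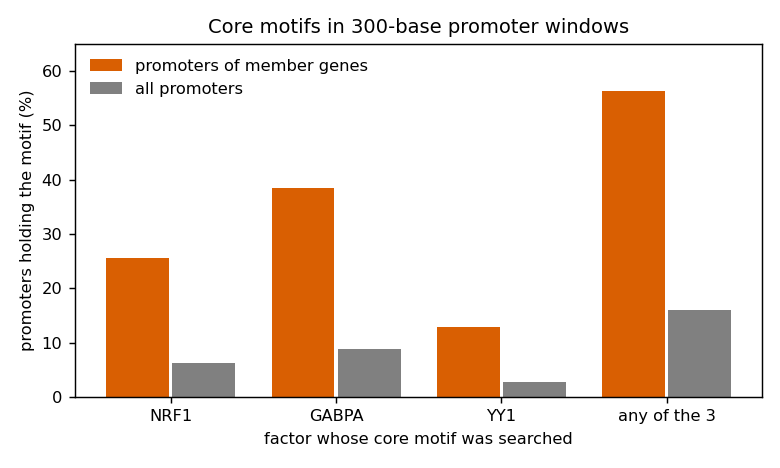
Share of promoter windows (vertical axis, percent) that hold the core motif of the factor named on the horizontal axis, for the 39 windows of complex II, complex IV and ATP synthase genes (orange) and for all 32851 windows (grey). The orange bars stand at 25.6%, 38.5%, 12.8% and 56.4%, the grey bars at 6.25%, 8.86%, 2.75% and 16%.

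None of the 46 genes differed between ethanol and control arrays past the threshold, a Benjamini-Hochberg adjusted p under 0.05 in limma over all genes. Over all 19938 genes the share called was likewise 0%, and the smallest adjusted p of a member was 0.980. At an unadjusted p under 0.05 there was 1 member, Sdhd, against 2.94% of all genes. A fold of at least 1.2 was reached by Sdhb alone, on the lower side, where 1.57% of all genes lie, and by 0 members on the higher side, where 0.742% lie. No member met both criteria, which 1.02% of all genes did. The largest differences were thus small, between log2 values of -0.27 and 0.16, with a median of -0.01 over the members and 0.01 over all genes. The members' median was 0.0018 after repeated quantile normalization and 0.02 without control 1.

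In 11 members both ethanol arrays lay below both control arrays (23.9%, against 14% of all genes), and in 7 they lay above (15.2%, against 17.4%). Most members are bright on the array: 38 of them lie above the median gene, and among such genes the background is 20.8% lower and 13.9% higher, against 26.3% and 10.5% for these members. By complex, the lower genes were 2 of complex II, 5 complex IV subunits and 4 genes of the ATP synthase, and the higher genes were 3 complex IV subunits and 4 assembly genes. With a single array left in a group the arrays separate more easily, so both shares go up, in the background too. The lower count was then 14 and the higher 12 without ethanol 1 (32% and 26.4% of all genes), and 21 and 13 without ethanol 2 (29.5% and 44.9% of all genes). Without control 1 they came to 15 and 18 (27.7% and 31.2% of all genes), and without control 2 to 24 and 11 (32.4% and 38.6% of all genes).

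**Figure D2:**
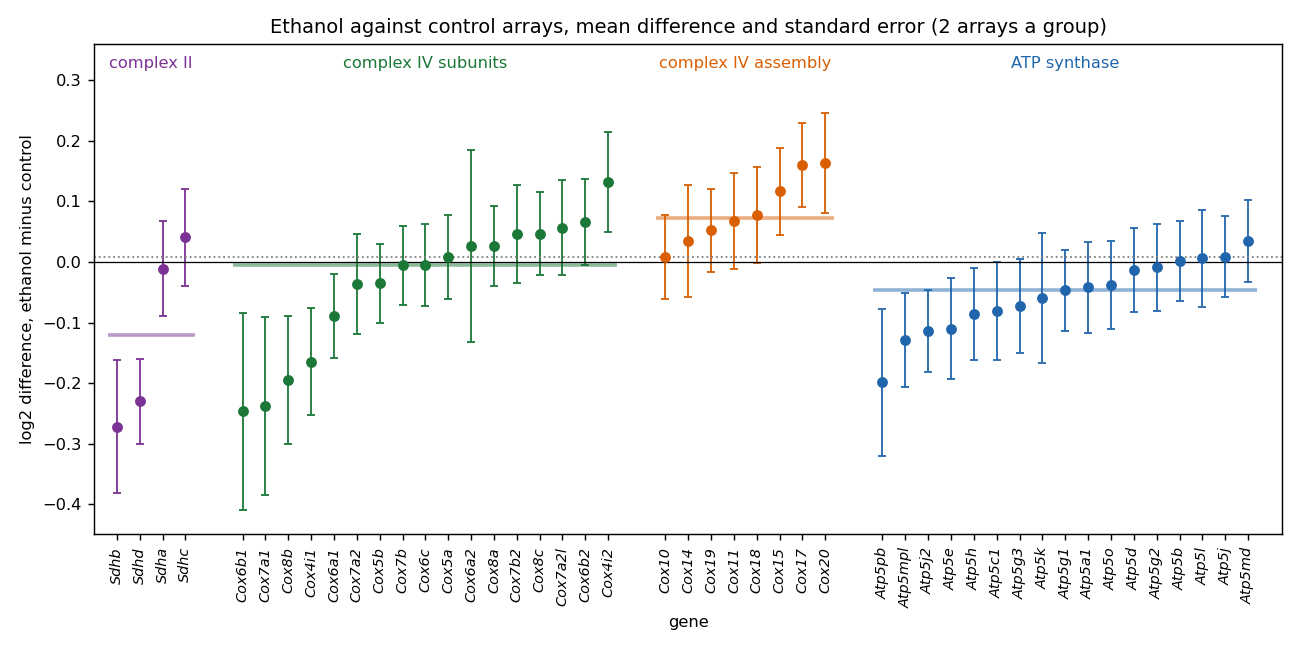
Log2 difference, ethanol minus control, of each of the 46 genes (vertical axis), sorted within its class along the horizontal axis, with bars of 1 standard error from limma (2 arrays per group). Coloured lines are class medians (-0.12 for complex II, -0.01 for complex IV subunits, 0.07 for complex IV assembly, -0.05 for the ATP synthase) and the dotted line is the median of all genes (0.01). The points run from -0.27 for Sdhb to 0.16 for Cox20.

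Several facts of the arrays as a whole bear on these values. The median of the deposited values was 8.01 to 8.04 on the 4 arrays. The upper quartile was 9.76 on ethanol 1, 9.77 on ethanol 2, 9.81 on control 1 and 9.78 on control 2. It was thus lowest on ethanol 1 and highest on control 1. Markers of neurons and of radial glia, the stem cells of the fetal brain, were bright on every array, with medians of 12.4 to 12.6 and 10.2 to 10.4. Their median log2 differences, ethanol minus control, were 0.02 and 0.03. Single neuron markers moved both ways, with Tubb3 at -0.38 ± 0.11 and Snap25 at 0.19 ± 0.09. Of 16 skeletal muscle markers, 15 were higher in control 1 than in control 2, with 13 of them at least 2-fold higher, and 15 were highest in control 1. Their summed linear signal was 2779 and 8319 in the ethanol arrays and 23995 and 2688 in the control arrays. Among the members, ethanol 1 was the lowest array in 19 genes (41.3%, against 24.9% of all genes) and control 1 the highest in 21 (45.7%, against 26.8%). Most members, 38 of 46, lie above the median gene, and these shares among such bright genes are not given here. The counts are therefore not read as a trait of the members. The part of either array's makeup in the differences below was not tested.

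**Figure D3:**
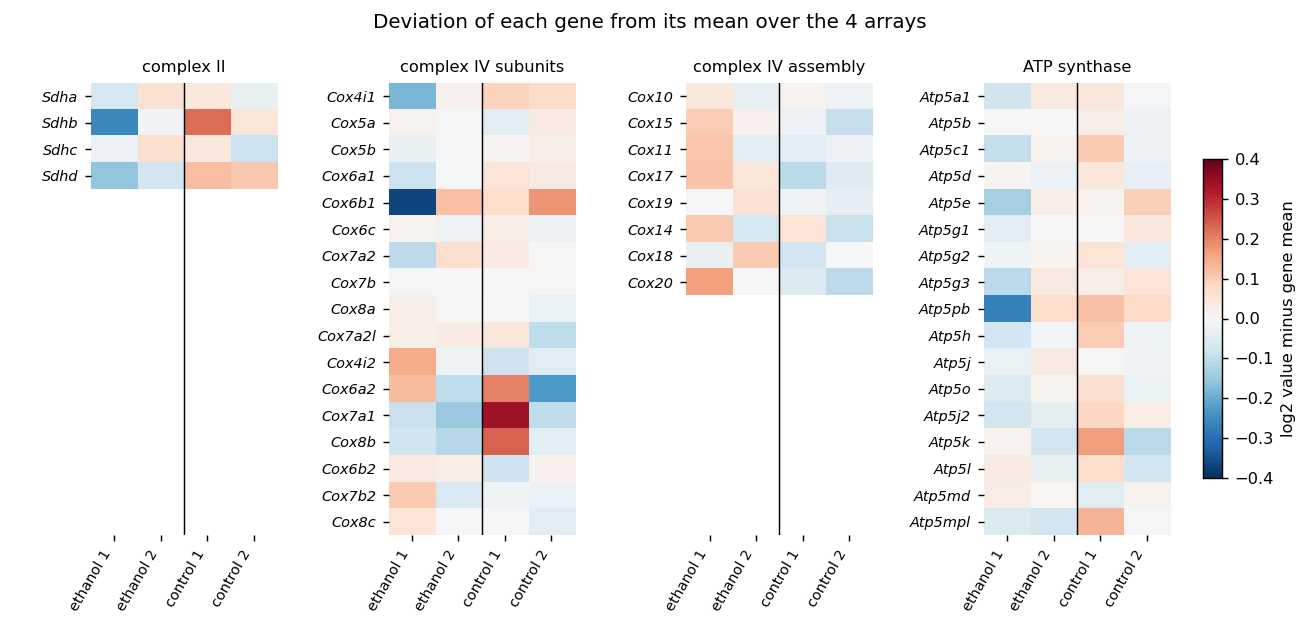
Each cell is the log2 value of a gene (row) on an array (column) minus the mean of that gene over the 4 arrays, in red where above and in blue where below, with the 4 classes side by side and a line between the ethanol and the control arrays. Cox6b1 and Atp5pb are lowest in ethanol 1, the muscle isoforms Cox7a1 and Cox8b are highest in control 1, and Sdhd is below its mean on both ethanol arrays.

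In complex II, 2 of the 4 genes, Sdhd and Sdhb, had both ethanol arrays below both control arrays. Of all genes 14% did, and of those above the median gene, where all 4 lie, 20.8% did. In Sdha and Sdhc the groups overlapped. Sdhd, a membrane anchor that helps to bind ubiquinone, had log2 values of 9.71 and 9.79 in ethanol 1 and ethanol 2 and of 9.99 and 9.97 in control 1 and control 2. The groups did not overlap, and the gap between them was larger than the spread within either. Its difference was -0.23 ± 0.07 (log2, SE, 2 arrays per group; 95% interval -0.40 to -0.06; limma unadjusted p = 0.0178, adjusted p = 0.980). Sdhb, the iron-sulfur subunit that carries electrons from the succinate site to ubiquinone, had values of 10.02 and 10.26 in the ethanol arrays and of 10.50 and 10.32 in the control arrays. Here too the groups were apart, but the nearest arrays, ethanol 2 and control 2, were only 0.06 apart. The difference of Sdhb was -0.27 ± 0.11 (95% interval -0.54 to 0.00045; limma adjusted p = 0.980), a fold of 1.21. It was -0.15 without ethanol 1 and -0.39 without ethanol 2, while that of Sdhd ranged from -0.27 to -0.19 over the 4 arrays left out.

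Sdha, the flavin-bearing subunit that oxidises succinate, had values of 10.99, 11.12, 11.10 and 11.03 in ethanol 1, ethanol 2, control 1 and control 2. Sdhc, the second membrane anchor, had values of 10.97, 11.06, 11.04 and 10.91 in the same order. Their differences were -0.01 ± 0.08 and 0.04 ± 0.08, with 95% intervals of -0.21 to 0.18 and -0.16 to 0.24. These overlap the intervals of Sdhb and Sdhd, and the difference between subunits was not tested. Sdha and Sdhc changed sign in 2 of the 4 settings with an array left out.

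The general subunits of complex IV, those made in most tissues, were below 0 in 7 of 9 cases (6 of 9 after repeated quantile normalization), with a median of -0.04. Of these 9, 4 had both ethanol arrays below both control arrays, against 14% of all genes and 20.8% of those above the median gene, and 1 had them above, against 17.4% and 13.9%. The count of 4 was 3 after repeated quantile normalization and 2 after median centring. Cox4i1, the subunit through which ATP is known to inhibit the enzyme, had values of 10.09 and 10.29 in the ethanol arrays and of 10.36 and 10.35 in the control arrays. The groups were apart, with the control arrays close together and ethanol 1 well below ethanol 2. Its difference was -0.16 ± 0.09. Cox6b1, which faces the intermembrane space where cytochrome c docks, had values of 11.45 and 11.94 in the ethanol arrays and of 11.89 and 12.00 in the control arrays. A single array, ethanol 1, lay low, and ethanol 2 lay within the control range. The difference of Cox6b1 was -0.25 ± 0.16, and it was -0.49 without ethanol 2 but -0.0018 without ethanol 1.

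Smaller gaps of the same kind were seen in Cox6a1, Cox5b and Cox7b. Cox6a1, which lies near the dimer contact of the enzyme, had values of 10.52 and 10.60 against 10.65 and 10.64, a difference of -0.09 ± 0.07. Cox5b, a zinc-binding matrix subunit, differed by -0.04 ± 0.07 and Cox7b by -0.01 ± 0.06. For Cox7b all 4 arrays lay between 12.83 and 12.84, so an absence of overlap alone says little about size. Cox8a was the general subunit with both ethanol arrays above both control arrays, at 12.07 and 12.05 against 12.05 and 12.02 (0.03 ± 0.07). Cox5a (0.01 ± 0.07), Cox6c (-0.01 ± 0.07) and Cox7a2 (-0.04 ± 0.08) overlapped between the groups. Cox7a2 was also low in ethanol 1, at 10.38, against 10.55 in ethanol 2 and 10.52 and 10.49 in the control arrays. Cox7a2l, classed here as a factor of supercomplexes of complexes III and IV, stood at 0.06 ± 0.08. Its second probe set stood at -0.22, so the probe sets of this gene disagree in sign.

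The muscle isoforms of complex IV had their highest value in control 1. Cox7a1, the heart and skeletal muscle counterpart of Cox7a2, had values of 7.60 and 7.54 in the ethanol arrays and of 8.03 and 7.59 in the control arrays. Cox8b, the counterpart of Cox8a, had values of 6.62 and 6.59 against 6.94 and 6.66. Cox6a2, the counterpart of Cox6a1, had values of 8.25 and 8.02 against 8.32 and 7.89. Control 1 exceeded control 2 by 0.44, 0.28 and 0.43 in these genes, the array in which the 16 muscle markers had a median of 9.80, against 7.18 in control 2. In ethanol 2, where the muscle markers had a median of 8.30 against 7.35 in ethanol 1, the isoforms lay lower than in ethanol 1. The differences between the groups were -0.24 ± 0.15 for Cox7a1, -0.19 ± 0.11 for Cox8b and 0.03 ± 0.16 for Cox6a2. Without control 1 they came to -0.02, -0.05 and 0.24. The part of muscle RNA in these values was not tested.

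**Figure D4:**
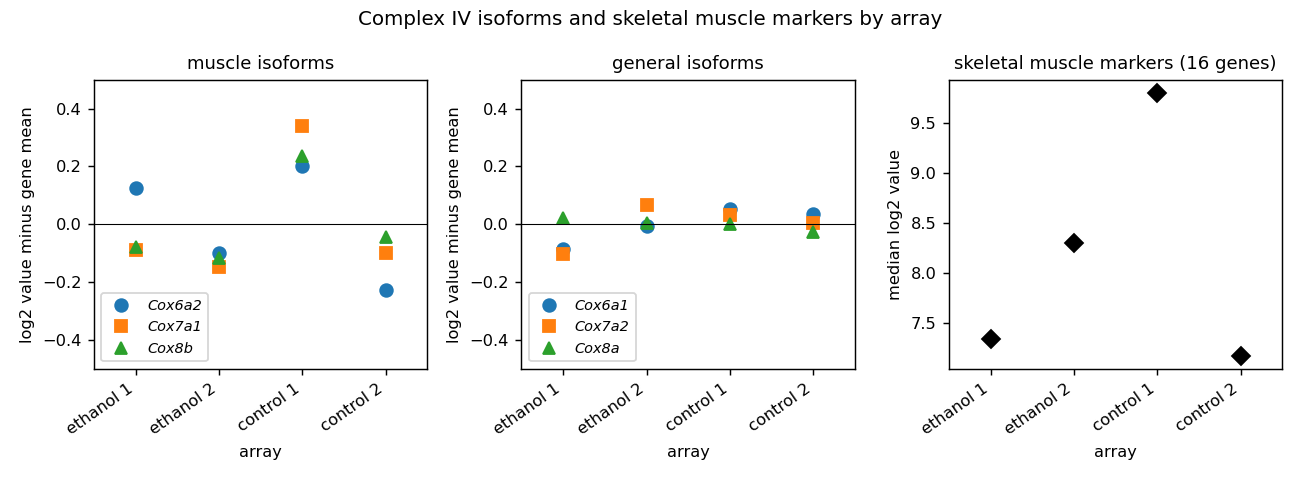
Left and middle, log2 value minus the gene's mean over the 4 arrays (vertical axis) for the muscle isoforms Cox6a2, Cox7a1 and Cox8b and for the general isoforms Cox6a1, Cox7a2 and Cox8a, by array (horizontal axis). Right, the median log2 value of 16 skeletal muscle markers by array, at 7.35, 8.30, 9.80 and 7.18. The muscle isoforms are highest in control 1, as the markers are, and the general isoforms stay closer to their means.

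The remaining tissue isoforms had differences above 0, by small amounts, where 54.2% of all genes lay above 0. All of them are dimmer than the median gene, and the share among such genes is not given here. Cox4i2, the lung form of subunit 4, which is known to respond to low oxygen, had values of 7.99 and 7.82 against 7.76 and 7.79. Its groups were apart by 0.03 at their nearest arrays, and the difference was 0.13 ± 0.08, ranging from 0.05 to 0.22 with an array left out. Cox6b2, Cox7b2 and Cox8c are testis forms. Cox6b2 had values of 6.68 and 6.67 against 6.56 and 6.66 (0.07 ± 0.07), and Cox8c had values of 6.65 and 6.59 against 6.60 and 6.55 (0.05 ± 0.07). Cox7b2, at 6.19 and 6.02 against 6.06 and 6.06 (0.05 ± 0.08), was dimmer than the lower quartile on every array (quartiles of 6.45 to 6.55). Values this dim say little about a transcript's presence, and 3 of 5 further markers of sperm-forming cells also lay below the lower quartile on all arrays. After repeated quantile normalization the differences were 0.03 for Cox6b2, 0.0074 for Cox7b2, 0.01 for Cox8c and 0.14 for Cox4i2.

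The 8 assembly genes of complex IV had differences above 0, with a median of 0.07, where 54.2% of all genes lay above 0. In 4 of the 8 both ethanol arrays lay above both control arrays, against 17.4% of all genes. These genes act at different steps: the copper chaperones load the enzyme's copper centres, Cox10 and Cox15 make its heme a, and Cox14, Cox18 and Cox20 help to make and insert the core subunits Cox1 and Cox2. Cox20, a chaperone of Cox2, had values of 10.91 and 10.75 in the ethanol arrays and of 10.69 and 10.64 in the control arrays. The groups were apart by 0.06 at their nearest arrays, with ethanol 1 the highest. Its difference was 0.16 ± 0.08 (95% interval -0.04 to 0.37; limma adjusted p = 0.980). Cox17, which passes copper on within the intermembrane space, had values of 7.78 and 7.72 against 7.56 and 7.62. Both groups were tight relative to the gap of 0.10 between their nearest arrays, and the difference was 0.16 ± 0.07 (95% interval -0.01 to 0.33; limma adjusted p = 0.980).

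Cox15, which makes heme a, had values of 9.38 and 9.29 against 9.25 and 9.19, a difference of 0.12 ± 0.07. Cox10, which makes the heme o that Cox15 uses, had values of 9.37 and 9.30 against 9.34 and 9.31 and stood at 0.01 ± 0.07. The interval of Cox10, -0.16 to 0.18, includes the difference of Cox15, so these 2 steps of heme a synthesis were not separated beyond their error. Cox19, a further factor of copper delivery, had both ethanol arrays above both control arrays at 0.05 ± 0.07. Cox11, which inserts copper into Cox1, stood at 0.07 ± 0.08, Cox18, which exports part of Cox2 across the membrane, at 0.08 ± 0.08, and Cox14, at 0.03 ± 0.09, was high in ethanol 1 (8.67) and in control 1 (8.62). Without ethanol 1 only 5 of the 8 were above 0, and without control 2 only 6. All 8 stayed above 0 without ethanol 2 and without control 1.

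**Figure D5:**
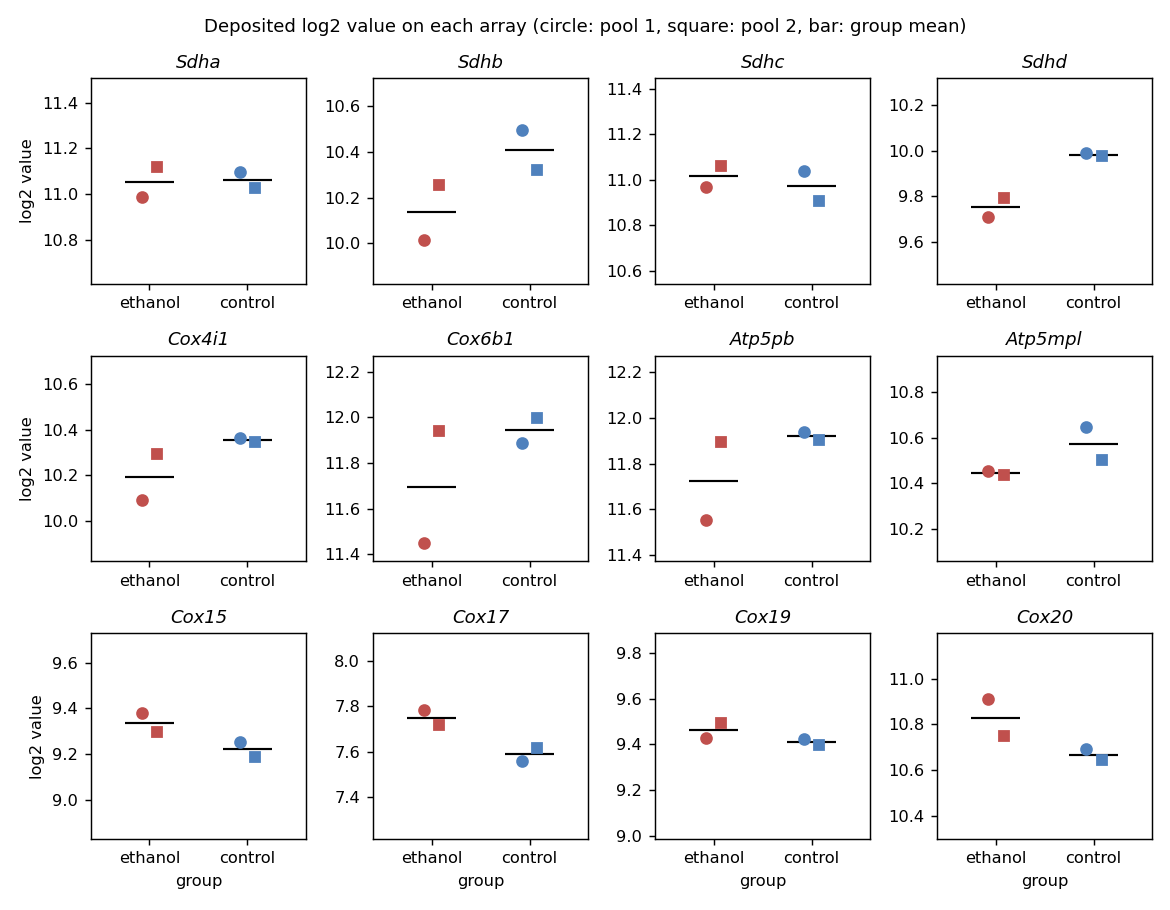
Deposited log2 value (vertical axis, a span of 0.9 in each panel) of 12 genes by group (horizontal axis), with pool 1 as a circle, pool 2 as a square and the group mean as a bar. Sdhd has both ethanol arrays below both control arrays and Cox17 has them above, while in Cox6b1 and Atp5pb ethanol 1 alone lies far from the other arrays.

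In the ATP synthase 13 of 17 genes lay below 0, where 45.8% of all genes and 59.5% of those above the median gene did, and the median was -0.05. In 4 of the 17 (23.5%) both ethanol arrays lay below both control arrays, and in 0 they lay above. Of all genes 14% were lower and 17.4% higher in this way. Of those above the median gene, where all 17 lie, 20.8% were lower and 13.9% higher. The count of 4 was 3 after repeated quantile normalization, 3 after median centring and 5 with averaged probe sets. The count of 0 was 1 after repeated quantile normalization. In the catalytic head, Atp5b, the beta subunit that makes ATP, had values of 13.47 and 13.47 in the ethanol arrays and of 13.49 and 13.44 in the control arrays. Its difference was 0.00215 ± 0.07 (95% interval -0.16 to 0.17), and that of Atp5a1, the alpha subunit, was -0.04 ± 0.07. In the central stalk, which turns inside the head, Atp5c1 (gamma) stood at -0.08 ± 0.08, Atp5d (delta) at -0.01 ± 0.07 and Atp5e (epsilon) at -0.11 ± 0.08. All 3 overlapped between the groups.

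The peripheral stalk, which holds the head still, contained the gene with the largest difference of the complex. Atp5pb, its subunit b, had values of 11.55 and 11.89 in the ethanol arrays and of 11.94 and 11.90 in the control arrays. The groups were apart by only 0.01, with ethanol 1 far below the other arrays. Its difference was -0.20 ± 0.12, against -0.03 without ethanol 1 and -0.37 without ethanol 2. A second probe set of Atp5pb had values of 10.25 and 10.31 against 10.44 and 10.46, a difference of -0.17 with both ethanol arrays low. Atp5h (subunit d) stood at -0.09 ± 0.08 (-0.07 on each of its 2 further probe sets), Atp5o (the subunit that caps the head) at -0.04 ± 0.07 and Atp5j (coupling factor 6) at 0.01 ± 0.07.

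The 3 genes of the c ring, the rotor through which protons pass, encode the same mature protein and differ in the targeting sequence that is cut off. Atp5g1 had values of 11.75 and 11.79 in the ethanol arrays and of 11.80 and 11.84 in the control arrays. Atp5g2 had values of 11.84 and 11.87 against 11.91 and 11.81, and Atp5g3 had values of 11.69 and 11.84 against 11.82 and 11.85. Only in Atp5g1 were the groups apart, by 0.01. The differences were -0.05 ± 0.07, -0.01 ± 0.07 and -0.07 ± 0.08, so the intervals of the 3 genes overlap widely, from -0.27 at the lowest to 0.17 at the highest.

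Among the small membrane subunits, which shape the dimers of the enzyme, Atp5mpl and Atp5j2 had both ethanol arrays below both control arrays. Atp5mpl, a small proteolipid, had values of 10.45 and 10.44 against 10.65 and 10.50. Atp5j2 (subunit f) had values of 10.96 and 10.99 against 11.11 and 11.06. In both genes the ethanol arrays were closer together than the control arrays, and the differences were -0.13 ± 0.08 and -0.11 ± 0.07. Atp5md had values of 12.78 and 12.75 against 12.70 and 12.76 and the highest difference of the complex, at 0.04 ± 0.07. Atp5k (subunit e) stood at -0.06 ± 0.11 with its highest value, 8.51, in control 1, and Atp5l (subunit g) at 0.01 ± 0.08, with 5 further probe sets from -0.09 to 0.01. The count of ATP synthase genes below 0 depended on control 1: it was 9 of 17 without that array, 12 without ethanol 1, 13 without ethanol 2 and 16 without control 2.

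Neighbouring steps of the pathway were read from lists of other genes, with 0 of them called at an adjusted p under 0.05. The background for the counts that follow is 2.94% of all genes at an unadjusted p under 0.05, and 45.8% of all genes, or 59.5% of those above the median gene, below 0. Of 10 genes of complex III and cytochrome c, which hand electrons to complex IV, 8 were below 0 (median -0.13). At an unadjusted p under 0.05 there were 2, Uqcr11 at -0.64 ± 0.12 and Cycs at -0.51 ± 0.15. Each value is from the brightest probe set alone, of 2 for Uqcr11 and 3 for Cycs, and the further probe sets are not given here. Of 34 complex I subunits 19 were below 0 as deposited (median -0.00498). After quantile normalization or median centring 16 were (medians 0.0086 and 0.00047), and without control 1 15 were (median 0.01). Of these 34, 3 had an unadjusted p under 0.05, with Ndufb2 at -0.39 ± 0.11 and Ndufa1 at 0.35 ± 0.11 the furthest apart. Among 13 other assembly factors of complex IV, 7 were above 0 and 6 below (median 0.00305), with 8 of 13 below 0 without ethanol 2, without control 1 or without control 2. Surf1, which takes part in heme insertion, was the gene with an unadjusted p under 0.05 there, at 9.29 and 9.45 against 9.55 and 9.71 (-0.26 ± 0.10). Whether this list differs from the Cox10 to Cox20 genes was not tested.

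Assembly factors of the other complexes were few. Of 4 factors of complex II, 3 were below 0 (median -0.04), or 2 after quantile normalization. Of 4 genes of ATP synthase assembly and inhibition, 1 was below 0, Atpaf1, a chaperone of the beta subunit. The brighter of its 2 probe sets had values of 9.54 and 9.77 against 9.90 and 9.91 (-0.25 ± 0.09). The 4 carriers of ADP, ATP and phosphate were below 0 with a median of -0.03, and in each the groups overlapped. With any 1 array left out, 3 of the 4 were below 0. Of 12 genes of the citric acid cycle, 8 were below 0 (median -0.04), or 6 under either rescaling. Without control 1 the count for the citric acid cycle was 5 of 12, and the median turned to 0.01. Regulators of mitochondrial genes had 7 of 12 above 0 (median 0.01), with 9 above without control 1. Without ethanol 2 or without control 2 there were 5 above, with medians of -0.02 and -0.03. Among them Nrf1 stood at 0.04 ± 0.08, Gabpa at -0.14 ± 0.08, Yy1 at 0.05 ± 0.09 and Tfam at 0.000745 ± 0.07. Markers of the mitochondrial outer membrane and matrix had 6 of 8 below 0 (median -0.03), or 5 after quantile normalization. Without ethanol 1 only 2 of these 8 were below 0, with a median of 0.04. In these last 4 lists no gene had an unadjusted p under 0.05.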

How the data were processed

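Gene expression was measured on Affymetrix whole-transcript arrays in 2 ethanol and 2 control pools of fetal brains. The authors deposited 1 log2 intensity for each probe set on each array, a log base inferred here from the span of the numbers. The submitters' processing notes list Partek 6.6. The steps of background correction, normalization and summary, as well as the genome build, were not given in the sources used here.

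The table holds 35556 probe sets, of which 21789 have 1 symbol, 1621 several and 12146 none. All 46 members were matched by Entrez identifier to the gene table of GRCm38.p6. The table has 0 columns of other samples.

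Groups were compared with limma 3.58.1 in R 4.3.3 (lmFit, eBayes without trend, two-sided, no block) over 19938 genes, each read by its brightest probe set, with Benjamini-Hochberg adjustment over all genes. Total degrees of freedom were 5.65, and the median SE of a log2 difference was 0.08. The fit was also run on simulated data, and the share of changes it recovered there is not given here. A permutation of 2 against 2 arrays cannot go below p = 0.333. The number of arrays limits the precision.

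Members and lists were chosen with earlier results of these data known. All members are named, with values per array for complex II, for members past an unadjusted p under 0.05 or a fold of 1.2, for the 2 largest differences each way in the other classes and for isoform pairs. From each further list up to 2 genes with an unadjusted p under 0.05 and the largest change are named. Core motifs were searched in RefSeq promoter windows, with their letters chosen after the values had been seen; a form of the NRF1 core longer by 1 base was searched first and was in 1 gene fewer. Deviations of same-numbered arrays correlated at -0.484 over all genes and at 0.312 over the 46 members, and the labels do not pair the arrays. Alternatives were other scalings, averaged probe sets, brighter genes alone, trend, robust and ordinary variances, blocks and leaving out each array.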

Additional observations from a re-analysis of the deposited data

How the results depend on the processing

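The count of members past the adjusted threshold was 0 under all alternatives run. The count with an unadjusted p under 0.05 and a fold of at least 1.2, 0 as reported, was 1 after median centring, 1 with averaged probe sets, 1 with trend and robust variances and 1 with a crossed block, and ranged from 0 to 5 with an array left out. Members with both ethanol arrays higher numbered 4 among genes brighter than the median gene, where 38 of the 46 enter. They ranged from 11 to 18, and those with both lower from 14 to 24, with any 1 array left out, since fewer arrays have to be apart. Class medians moved by less than the spread between arrays under scalings, filters and blocks. Leaving out an array gave medians from -0.17 to -0.05 (complex II), -0.03 to 0.01 (complex IV subunits), 0.078 to 0.13 (complex IV assembly) and -0.07 to -0.02 (ATP synthase).

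Signs turned after repeated quantile normalization for Sdha (0.00665), Cox7b (0.000675) and Atp5g2 (0.00283), and with the mean of probe sets for Cox6c (0.00428), Cox7a2l (-0.081) and Atp5l (-0.025). The sign of the difference held without each array in turn in 27 members. In the other 19 it turned at least once, over these ranges: Sdha -0.076 to 0.054, Sdhc -0.024 to 0.11, Cox5a -0.031 to 0.048, Cox6c -0.031 to 0.020, Cox7a2 -0.12 to 0.049, Cox7a2l -0.017 to 0.13, Cox6a2 -0.19 to 0.24, Cox7b2 -0.037 to 0.13, Cox10 -0.029 to 0.045, Cox11 -0.010 to 0.15, Cox14 -0.053 to 0.12, Atp5a1 -0.10 to 0.016, Atp5b -0.021 to 0.026, Atp5d -0.051 to 0.025, Atp5g2 -0.059 to 0.041, Atp5j -0.022 to 0.040, Atp5o -0.084 to 0.0081, Atp5k -0.20 to 0.079 and Atp5l -0.066 to 0.078. The cause was not tested.

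The labels give both groups the numbers 1 and 2. With the replicate number as a block 0 members were called and 0 had an unadjusted p under 0.05, and with the crossed pairing, chosen after the data were seen, 0 and 3. Without a block 1 member had an unadjusted p under 0.05. Either block left every difference as it was and changed no call at an adjusted p under 0.05.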

Other observations

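Cox7c and Cox16, further genes of the complex IV families, are read here only by probe sets that carry a second symbol, and so belong to no comparison above. The 3 probe sets annotated to Cox7c and Gm12338 had values of 13.2 to 13.8 on the ethanol arrays, and each was highest in control 1, with differences of -0.03, -0.03 and -0.04. The probe set annotated to Cox16 and Gm20498 had log2 values of 11.30 and 11.19 in the ethanol arrays and of 11.22 and 11.18 in the control arrays, a difference of 0.04.

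Of the 46 genes, 10 had more than 1 probe set. The further probe sets had the sign of the brightest in Atp5g1, Atp5g2, Atp5h, Atp5md, Atp5pb, Cox5b and Cox7b. In Cox6c (0.01 against -0.01) and Cox7a2l (-0.22 against 0.06) the further probe set had the other sign, and in Atp5l 1 of 5 had the sign of the brightest.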
